A study of Mus musculus with 8 samples.

Results

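The upstream regulators of the Hippo pathway described here are 10 genes, taken by symbol from the deposited table of 21705 gene rows, and all 10 were found in it. They are the atypical cadherin genes Fat4 and Dchs1, the KIBRA genes Wwc1 and Wwc2, the FERM domain gene Frmd6, the TAO kinase genes Taok1, Taok2 and Taok3, the LIM domain gene Limd1 and the angiomotin gene Amot. They were measured by poly(A) RNA sequencing of mouse kidney cortex in 8 libraries. The Sav1-null group (4 libraries, genotype Sav1-/-) had been given tamoxifen, and the wild-type group (4 libraries, genotype Sav1+/+) had been given vehicle, both on a mixed strain background. The labels used here name no Cre driver, deleted exon, sex or age, and give no statement that each library is another animal. The p-values therefore cover library-to-library spread alone, some of which may be technical. Genotype and treatment changed together and cannot be told apart.

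In the Hippo pathway the kinases MST1 and MST2, held by the scaffold salvador (Sav1), activate LATS1 and LATS2, which phosphorylate YAP and TAZ and keep them out of the nucleus. The genes described here act above that cassette or at its edge. The cadherins signal between neighbouring cells, KIBRA and FRMD6 gather the kinases at the cell membrane, and TAO kinases phosphorylate MST. Angiomotin binds YAP and LATS, and LIMD1 binds LATS and restrains it. In kidney, Fat4 and Dchs1 are known for their role in the stroma around nephron progenitors, and KIBRA for its presence in podocytes.

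The levels given are the deposited normalized expression values, and each library's upper quartile, zeros left out, is close to 1000. Each Sav1-null library held about 15700000 to 20900000 reads and each wild-type library 20500000 to 25000000. Sav1 itself had 983, 914, 982 and 714 in the Sav1-null libraries and 1504, 1743, 959 and 1193 in the wild-type libraries, so the groups overlapped (two-sided exact permutation test p = 0.0857). The log2 fold change of Sav1 was -0.56 (limma adjusted p = 0.0220), and this call did not hold in every alternative. Leaving out wild-type replicate 1 gave -0.50 (limma adjusted p = 0.0611), leaving out wild-type replicate 2 gave -0.43 (limma adjusted p = 0.0570), and scaling to equal totals gave -0.18 (limma adjusted p = 0.376). The groups differed in sex-linked transcripts as well: Xist ranged between 9280 and 16100 in the Sav1-null libraries and reached at most 0.989 in the wild-type libraries, while the Y-linked Ddx3y was 0 in every Sav1-null library and 734 to 844 in the wild-type libraries. Sex-linked transcripts thus separated the same libraries as genotype and treatment, and the 3 cannot be told apart. The labels name no batch, but the column names reuse the same S numbers in both groups, without saying what they mean. A batch that followed the groups could not be told apart from them either. The summed value of 10 proximal tubule markers, which mark the main cell type of cortex, was 45938 to 129561 in the Sav1-null libraries and 390860 to 435375 in the wild-type libraries, and 9 of the 10 were lower. For 10 injured tubule markers, which mark tubule cells that respond to damage, it was 427011 to 753531 in the Sav1-null libraries and 15745 to 35611 in the wild-type libraries, and all 10 were higher. Macrophage and myeloid markers were higher in 8 of 8 and collecting duct principal cell markers in 7 of 8. For comparison, 43.9% of all tested genes were called higher and 25.2% lower. The part of these cell types in the results on the 10 genes was not tested. In bulk tissue, fewer cells of a type and less RNA per cell cannot be told apart.

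Some libraries stood apart within their group. Sav1-null replicate 4 had the lowest summed fibroblast and pericyte markers of its group (3694, against 8239 to 10050 in the other Sav1-null libraries) and the lowest podocyte markers (1880, against 3322 to 4090). It was also the lowest in proximal tubule markers (45938, against 86608 to 129561), thick ascending limb markers (37377, against 70784 to 93768) and endothelial markers (1577, against 3085 to 3567), and the highest in collecting duct principal cell markers (40991, against 23603 to 35857). It was the lowest of its group for 6 of the 10 genes (Fat4, Dchs1, Wwc2, Frmd6, Taok1 and Amot) and the highest for 3 (Wwc1, Taok2 and Taok3). The injury marker Havcr1 was at 1099 and 665 in wild-type replicates 2 and 3, and at 23.6 and 15.5 in wild-type replicates 1 and 4. The 6 calls reported next held without each library in turn, and without wild-type replicates 2 and 3 together.

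Of the 10 genes, all of which passed the filter on low values, 6 were higher in the Sav1-null group and 0 lower (limma, adjusted p under 0.05 over all 13677 tested genes). Over all tested genes 43.9% were called higher and 25.2% lower, or 69.1% in either direction, so 6 of 10 lies near the background. The median log2 fold change was 0.40 over the 10 genes and 0.23 over all tested genes. The genes that rose were Frmd6 (2.64-fold), Wwc1 (2.05-fold), Taok3 (2.05-fold), Taok1 (1.45-fold), Limd1 (1.33-fold) and Taok2 (1.32-fold). For these 6 the lowest Sav1-null library lay above the highest wild-type library, as it did for 41.0% of all tested genes (24.1% lay wholly below, 65.2% in either direction). A log2 fold change of at least 1 with a call was reached by 3 of the 10 genes and by 23.1% of all tested genes. Fat4, Dchs1, Wwc2 and Amot did not pass the test and their groups overlapped.

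**Figure D1:**
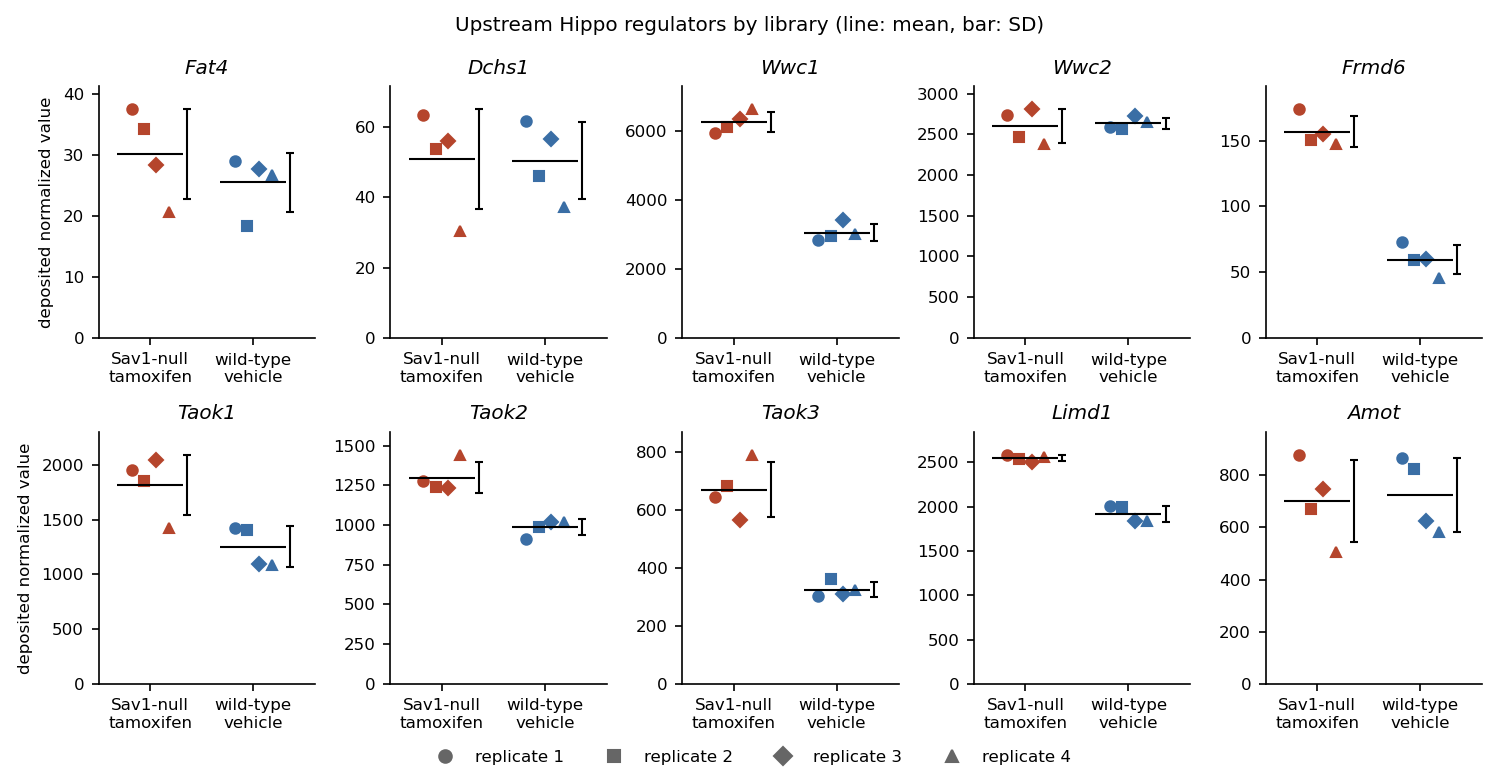
Deposited normalized value of each of the 10 genes (y axis, from 0) in the 4 Sav1-null tamoxifen and the 4 wild-type vehicle libraries, with 1 symbol per replicate, a line at the group mean and a bar for the SD. Frmd6, Wwc1 and Taok3 stand clear of the wild-type libraries, Taok1 separates by a narrow margin (1426 against 1423), and Fat4, Dchs1, Wwc2 and Amot overlap.

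The calls depended in part on the scaling of the libraries. Median-of-ratios rescaling moved the median of all tested genes by -0.22, quantile normalization by -0.25 and equal library totals by 0.38 on the log2 scale. The share of all calls that were higher was 49.9% with median-of-ratios rescaling, 48.8% with quantile normalization and 81.7% with equal totals. Of all tested genes, 33.8% were called higher and 34.0% lower with median-of-ratios rescaling, 31.5% higher and 33.0% lower with quantile normalization, and 63.4% higher and 14.2% lower with equal totals. Frmd6, Wwc1, Taok3 and Limd1 were called higher as deposited and under all 3. Taok1 (0.31, limma adjusted p = 0.0565) and Taok2 (0.17, limma adjusted p = 0.104) were not called after median-of-ratios rescaling.

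**Figure D2:**
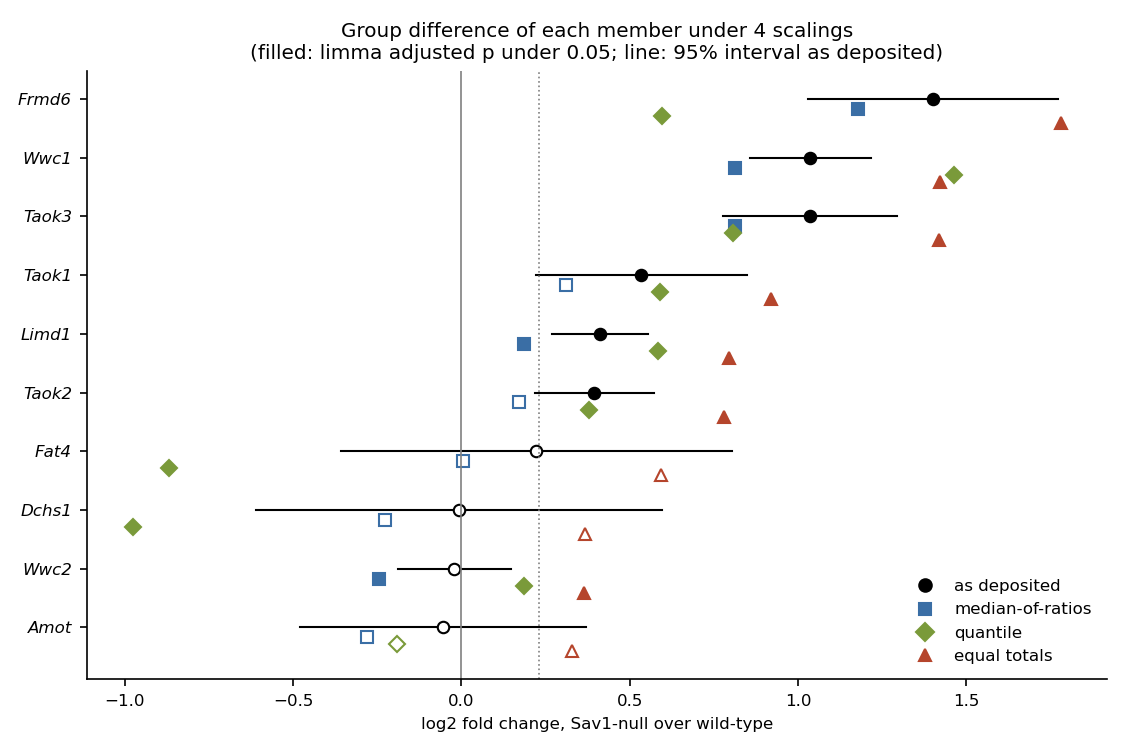
Log2 fold change of each gene, Sav1-null over wild-type (x axis), as deposited (circle, with its 95% interval) and under 3 other scalings; a filled symbol has a limma adjusted p under 0.05, and the dotted line is the median of all tested genes, 0.23. Frmd6, Wwc1, Taok3 and Limd1 are filled and above 0 under each scaling, whereas Wwc2 lies at -0.02 as deposited, at -0.25 with median-of-ratios rescaling and at 0.36 with equal totals.

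Levels were compared between genes per kilobase of transcript, with the longest RefSeq-matched transcript as the length. Wwc1 was the highest in both groups, at 1382 ± 65.7 per kilobase in the Sav1-null group and 674 ± 55.4 in the wild-type group (SD, n = 4 each), followed by Limd1 at 526 ± 6.82 in the Sav1-null group and 396 ± 19.1 in the wild-type group. Wwc2 and Taok2 came next, and their ranges per kilobase overlapped in the Sav1-null group (275 to 324 for Wwc2, 247 to 289 for Taok2) but not in the wild-type group (296 to 314 for Wwc2, 183 to 205 for Taok2). Taok3 stood at 149.8 ± 21.0 per kilobase in the Sav1-null group, beside Taok1 at 147 ± 22.1, whereas in the wild-type group its 72.6 ± 5.68 lay below Taok1 at 101 ± 15.0 and Amot at 104 ± 20.4. In each group the ranges of Taok1 and Amot overlapped, and in the Sav1-null group also those of Taok3 and Taok1. Taok3 exceeded Taok1 in Sav1-null replicates 2 (152.5 against 149.1) and 4 (176.7 against 114.9). It lay below Taok1 in Sav1-null replicates 1 (143.9 against 157.4) and 3 (126.1 against 164.9). Frmd6 was low, at 33.6 ± 2.56 per kilobase in the Sav1-null group and 12.8 ± 2.38 in the wild-type group. The cadherins were the lowest, with Dchs1 at 4.73 ± 1.32 in the Sav1-null group and 4.68 ± 1.02 in the wild-type group, and Fat4 at 1.88 ± 0.458 in the Sav1-null group and 1.58 ± 0.298 in the wild-type group.

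**Figure D3:**
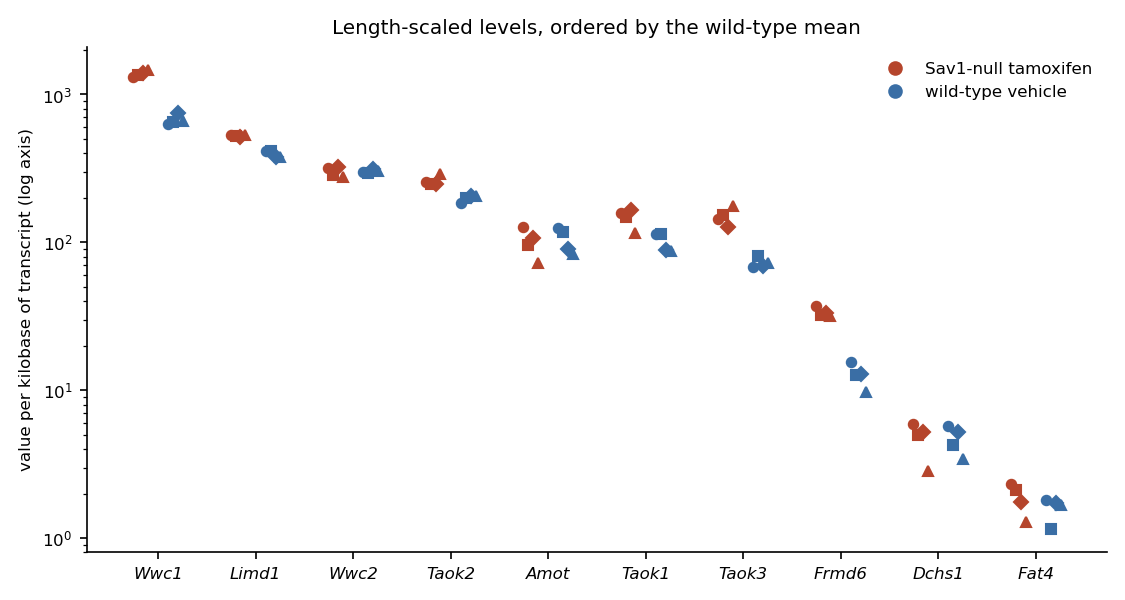
Deposited value per kilobase of transcript (y axis, log scale) of the 10 genes in each Sav1-null tamoxifen and wild-type vehicle library, ordered by the wild-type mean; symbols mark replicates 1 to 4 as circle, square, diamond and triangle. The levels span from about 1.14 (Fat4) to 1465 (Wwc1). In the Sav1-null group the mean of Taok3 moves up beside that of Taok1, with Taok3 above Taok1 in replicates 2 and 4 only.

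Fat4 and Dchs1, the large cadherins that bind each other across cell borders, were at low levels and did not pass the test. Fat4 had values of 37.5, 34.2, 28.4 and 20.7 in the Sav1-null libraries and 29.0, 18.4, 27.8 and 26.8 in the wild-type libraries. These correspond to about 21 to 48 reads per library. Sav1-null replicates 1 and 2 were the highest of all libraries and replicate 4 was near the low end. Fat4 differed by 0.22 on the log2 scale with a 95% interval from -0.36 to 0.80 (limma adjusted p = 0.462), so the interval of the fold reached from 0.780 to 1.75.

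Dchs1 had values of 63.2, 53.8, 56.1 and 30.5 in the Sav1-null libraries and 61.7, 46.1, 56.5 and 37.1 in the wild-type libraries, or about 31 to 81 reads. Replicate 4 was the lowest library in each group. For Dchs1 the log2 fold change was -0.01 with an interval from -0.61 to 0.59 (limma adjusted p = 0.982). Both cadherins were called lower after quantile normalization, Fat4 at -0.87 (limma adjusted p = 0.0128) and Dchs1 at -0.98 (limma adjusted p = 0.00457). The ratio of Fat4 to Dchs1 within a library, which multiplying a library by 1 factor moves only through the pseudocount, was 0.516 to 0.688 in the Sav1-null libraries and 0.413 to 0.730 in the wild-type libraries (exact permutation p = 0.286).

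Both genes share exonic sequence with antisense or pseudogene transcripts on the other strand. Of these, Gm15645 at Dchs1 was at 1.57 ± 1.92 in the Sav1-null group and 6.07 ± 1.82 in the wild-type group. Those at Fat4 had no deposited value under their symbols. Markers of fibroblasts and pericytes, the stromal cells of the kidney, were mostly higher. Of 10 tested, 8 were higher and 0 lower, with a median log2 fold change of 1.17. Among all tested genes 43.9% were higher and 25.2% lower, with a median of 0.23. The summed value of the fibroblast and pericyte markers was 3694 to 10050 in the Sav1-null libraries and 2047 to 2868 in the wild-type libraries. Pdgfra, a receptor of these cells named after its values were seen, was at 328, 362, 466 and 96.5 in the Sav1-null libraries and at 77.1, 98.0, 90.0 and 28.9 in the wild-type libraries. Sav1-null replicate 4 and wild-type replicate 4 were the lowest of their groups in Pdgfra, as they were in Dchs1, Frmd6, Taok1 and Amot. Fat4 was lowest in Sav1-null replicate 4 and in wild-type replicate 2. The part of these cells in the levels of Fat4 and Dchs1 was not tested.

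The KIBRA paralogs parted. Wwc1, which encodes KIBRA, had values of 5954, 6107, 6338 and 6639 in the Sav1-null libraries and 2853, 2941, 3419 and 3006 in the wild-type libraries. The lowest Sav1-null library was 74.1% above the highest wild-type library. Wwc1 rose by 1.04 ± 0.08 (log2 fold change ± SE, limma adjusted p = 5.64e-06, 95% interval of the fold from 1.81 to 2.32), and the two-sided exact permutation test gave p = 0.0286, the smallest that 4 libraries against 4 allow.

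Wwc2, the second KIBRA family scaffold, had values of 2741, 2466, 2812 and 2385 in the Sav1-null libraries and 2587, 2566, 2725 and 2654 in the wild-type libraries. The groups overlapped, with the wild-type libraries inside the range of the Sav1-null libraries. Between the groups Wwc2 differed by -0.02 on the log2 scale, with an interval from -0.19 to 0.15 (limma adjusted p = 0.818). Its direction followed the scaling: it was called lower after median-of-ratios rescaling (-0.25, limma adjusted p = 0.0180) and higher after quantile normalization (0.19, limma adjusted p = 0.0433) and with equal totals (0.36, limma adjusted p = 0.00103). Cldn22, which shares exonic sequence with Wwc2 on the other strand, was at 0 in every library.

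The ratio of Wwc1 to Wwc2 within a library was 2.17, 2.48, 2.25 and 2.78 in the Sav1-null libraries and 1.10, 1.15, 1.25 and 1.13 in the wild-type libraries. The groups stood far apart, with a log2 ratio of 1.27 ± 0.16 in the Sav1-null group and 0.21 ± 0.08 in the wild-type group (SD, n = 4 each). The difference of 1.06 had an exact permutation p of 0.0286, the smallest possible, or 0.0429 adjusted over the 9 ratios compared. The 6 ratios whose groups did not overlap share both values. Their adjusted p thus depends on how many of the 9 separated and does not rank them. Per kilobase, Wwc1 made up 82.2% ± 1.60 of the Wwc1 and Wwc2 signal in the Sav1-null group and 68.9% ± 1.19 in the wild-type group. Podocyte markers, those of a cell type known for KIBRA, were mostly lower: of 8 tested, 1 was higher and 5 were lower. Over all tested genes 43.9% were higher and 25.2% lower. The summed podocyte value was 1880 to 4090 in the Sav1-null libraries and 4411 to 5931 in the wild-type libraries. Of 8 collecting duct principal cell markers 7 were higher and 0 lower. Their summed value was 23603 to 40991 in the Sav1-null libraries and 10425 to 13433 in the wild-type libraries. Principal cells were not alone in this. Markers of injured tubule (10 of 10), macrophage and myeloid cells (8 of 8) and fibroblasts and pericytes (8 of 10) were higher as well, with 0 lower. Proximal tubule markers were lower in 9 of 10 and endothelial markers in 1 of 8, with 0 higher. The part of any of these cell types in the level of Wwc1 was not tested.

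The promoters of the 2 KIBRA genes are shown because the paralogs responded differently. RefSeq promoter windows (GRCm38.p6, another build than the mm9 of the deposited values) run from 250 bases before the gene start to 50 after it, and 8 of the 10 genes had one, Dchs1 and Limd1 being without. Letters searched were GGAATG, read as CATTCC on the other strand, for the TEAD partners of YAP, TGANTCA for AP-1 and TTCNNNGAA for STAT factors, the last 2 being their own reverse complement. Capitals mark the matches, which were TEAD letters only in the windows printed here. The Wwc1 window is chr11:35980478-35980777 and the Wwc2 window chr8:47990495-47990794, both on the minus strand and written 5′ to 3′.
Wwc1: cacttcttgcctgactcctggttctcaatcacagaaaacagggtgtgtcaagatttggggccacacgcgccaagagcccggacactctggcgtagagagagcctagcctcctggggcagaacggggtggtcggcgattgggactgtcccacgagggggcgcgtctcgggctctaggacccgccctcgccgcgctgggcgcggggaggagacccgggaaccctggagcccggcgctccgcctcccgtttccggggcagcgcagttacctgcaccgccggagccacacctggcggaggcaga
Wwc2: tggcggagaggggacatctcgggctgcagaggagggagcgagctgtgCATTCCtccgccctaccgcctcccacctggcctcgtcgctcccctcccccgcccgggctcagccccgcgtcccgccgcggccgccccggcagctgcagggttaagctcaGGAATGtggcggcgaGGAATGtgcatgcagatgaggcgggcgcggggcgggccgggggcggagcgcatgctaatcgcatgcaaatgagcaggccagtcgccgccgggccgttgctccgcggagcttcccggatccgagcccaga

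Wwc2 held 3 TEAD matches, which begin 203, 94 and 79 bases before the start, and Wwc1 held 0. Of all 32851 promoter windows 14.7% held at least 1 such match and 0.131% held 3 or more. The windows held 27 CpG in Wwc1 and 34 in Wwc2, against a median of 7 over all windows. These letters describe the windows and show no binding.

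Frmd6, which encodes the mammalian relative of the Drosophila protein Expanded, had the largest rise of the 10 genes as deposited. Its values were 174, 151, 155 and 148 in the Sav1-null libraries and 72.5, 59.5, 60.3 and 45.4 in the wild-type libraries, or about 44 to 223 reads. No Sav1-null library came near the wild-type range: the lowest was 104% above the highest wild-type library. Its log2 fold change was 1.40 ± 0.16 (SE, limma adjusted p = 6.09e-05), a 2.64-fold rise with a 95% interval from 2.04 to 3.42. It was 0.60 after quantile normalization (limma adjusted p = 0.00531), and ran from 1.28 to 1.502 with 1 library left out.

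Nf2, which encodes merlin, the FERM protein that works beside FRMD6 at the membrane, did not pass the test as deposited. Its values averaged 1939 ± 75.3 in the Sav1-null group and 2046 ± 39.0 in the wild-type group (SD, n = 4 each; limma adjusted p = 0.282). Nf2 was called lower after median-of-ratios rescaling (-0.30, limma adjusted p = 0.00201) and higher with equal totals (0.31, limma adjusted p = 0.00147). The ratio of Frmd6 to Nf2 was 0.0760 to 0.0912 in the Sav1-null libraries and 0.0231 to 0.0361 in the wild-type libraries. The groups did not overlap and the ratio was 2.79-fold higher in the Sav1-null group (exact permutation p = 0.0286, adjusted p = 0.0429). Quantile normalization, which does move ratios within a library, left the ratio 1.46-fold higher (exact permutation p = 0.0286).

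The windows of Frmd6 (chr12:70825264-70825563, plus strand) and Taok3 (chr5:117119879-117120178, plus strand) are shown because these genes rose about as far as Wwc1 or further. Neither they nor the Wwc1 window held a match to the 3 motifs, so there are no capitals.
Frmd6: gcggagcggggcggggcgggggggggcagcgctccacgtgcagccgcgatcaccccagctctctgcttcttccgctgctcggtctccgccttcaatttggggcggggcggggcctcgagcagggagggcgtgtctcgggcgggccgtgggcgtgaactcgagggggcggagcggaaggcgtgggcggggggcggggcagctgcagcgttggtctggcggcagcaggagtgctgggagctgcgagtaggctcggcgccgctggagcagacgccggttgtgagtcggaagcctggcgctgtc
Taok3: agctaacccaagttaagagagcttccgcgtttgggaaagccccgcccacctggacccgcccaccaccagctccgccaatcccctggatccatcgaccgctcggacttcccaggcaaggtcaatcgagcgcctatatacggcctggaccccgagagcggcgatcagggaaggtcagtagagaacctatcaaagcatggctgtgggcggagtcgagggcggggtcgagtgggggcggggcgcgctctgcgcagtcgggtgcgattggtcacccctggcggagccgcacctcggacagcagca

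Among the windows of the other 4 genes with an entry, Fat4 and Amot each held 1 match to the STAT letters, as did 8.30% of all windows, and none held TEAD or AP-1 letters. The Frmd6 window had 35 CpG and a GC content of 74.3%, and the Taok3 window 27 and 65.3%, against medians of 7 and 52.7% over all windows. The Taok1 window held 29 CpG, that of Taok2 16, that of Fat4 13 and that of Amot 7, so 7 of the 8 windows lay above the median, whether or not the gene rose.

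All 3 TAO kinase genes rose as deposited. Taok3 had values of 643, 681, 563 and 789 in the Sav1-null libraries and 303, 360.2, 311 and 323 in the wild-type libraries. Every Sav1-null library was at least 56.4% above the highest wild-type library. Taok3 rose by 1.04 ± 0.12 on the log2 scale (SE, limma adjusted p = 4.31e-05, 95% interval of the fold from 1.71 to 2.45).

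Taok1, whose product activates MST and also the p38 pathway, had values of 1953, 1850.4, 2046 and 1426 in the Sav1-null libraries and 1423, 1406, 1099 and 1089 in the wild-type libraries. Sav1-null replicate 4 lay only 0.237% above wild-type replicate 1, and wild-type replicates 1 and 2 stood above replicates 3 and 4. Taok1 rose by 0.53 ± 0.14 on the log2 scale (SE, limma adjusted p = 0.00698), or by 0.47 to 0.65 with 1 library left out. Abhd15 shares exonic sequence with Taok1 on the other strand and was far lower (51.5 ± 14.6 in the Sav1-null group and 57.2 ± 10.9 in the wild-type group).

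Taok2 had values of 1278, 1239, 1230.1 and 1442 in the Sav1-null libraries and 913, 987, 1019 and 1022 in the wild-type libraries. The groups did not overlap, and the spread within each was small. The log2 fold change was 0.40 ± 0.08 (SE, limma adjusted p = 0.00147).

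The ratio of Taok3 to Taok2 was 0.503, 0.550, 0.458 and 0.548 in the Sav1-null libraries and 0.332, 0.366, 0.306 and 0.317 in the wild-type libraries. These groups did not overlap (1.56-fold, exact permutation p = 0.0286, adjusted p = 0.0429). The ratio of Taok3 to Taok1 was 1.42-fold higher in the Sav1-null group, but Sav1-null replicate 3 (0.276) lay inside the wild-type range of 0.213 to 0.297 (exact permutation p = 0.0857, adjusted p = 0.110). This difference, 0.50 on the log2 scale, was 0.64 without Sav1-null replicate 3 (exact permutation p = 0.0286) and 0.31 without Sav1-null replicate 4 (exact permutation p = 0.143), the ends of its range with 1 library left out. It was 0.22 after quantile normalization (exact permutation p = 0.429). The ratio of Taok1 to Taok2 overlapped, at 0.989 to 1.66 in the Sav1-null libraries and 1.07 to 1.56 in the wild-type libraries (exact permutation p = 0.629). Per kilobase, Taok3 held 26.8% ± 2.95 of the TAO kinase signal in the Sav1-null group and 19.5% ± 0.866 in the wild-type group, and Taok2 held 46.7% ± 2.09 in the Sav1-null group and 53.3% ± 3.45 in the wild-type group.

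Limd1, a LIM domain protein gene of the Ajuba family, rose by little but evenly. Its values were 2586, 2542, 2509 and 2566 in the Sav1-null libraries and 2003, 1995, 1840.2 and 1838 in the wild-type libraries. The Sav1-null libraries had a coefficient of variation of 1.30%, the smallest of the 10 genes in either group. Limd1 rose by 0.41 ± 0.06 on the log2 scale (SE, limma adjusted p = 0.000314), or by 0.19 after median-of-ratios rescaling (limma adjusted p = 0.0216).

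Its paralog Ajuba, listed under the older symbol Jub, rose further, 2.65-fold (limma adjusted p = 1.21e-05). It had 1528, 1087, 1368 and 1521 in the Sav1-null libraries and 475, 581, 538 and 467 in the wild-type libraries. The ratio of Limd1 to Ajuba was 1.69, 2.34, 1.83 and 1.69 in the Sav1-null libraries and 4.21, 3.43, 3.42 and 3.93 in the wild-type libraries, 0.501 of the wild-type ratio in the Sav1-null group (exact permutation p = 0.0286, adjusted p = 0.0429). Limd1 thus stayed the higher of the pair in every library by deposited value, which is not scaled for length.

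Amot, the angiomotin gene on the X chromosome, did not pass the test. It had 878, 672, 748 and 504 in the Sav1-null libraries and 867, 823, 625 and 581 in the wild-type libraries. The groups overlapped over almost their whole range. For Amot the log2 fold change was -0.05 with an interval from -0.48 to 0.37 (limma adjusted p = 0.807), and it was 0.33 with equal totals, also not called. Of 412 tested X-linked genes 213 were higher and 77 lower, with a median log2 fold change of 0.45, where 90.0% of tested symbols had a chromosome. Over all tested genes 43.9% were higher and 25.2% lower, with a median of 0.23.

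Its paralogs Amotl1 and Amotl2 both rose, 3.55-fold (limma adjusted p = 3.62e-05) and 1.66-fold (limma adjusted p = 9.68e-05). The ratio of Amot to Amotl1 was 1.90, 1.25, 1.54 and 0.637 in the Sav1-null libraries and 4.83, 6.18, 3.29 and 4.42 in the wild-type libraries. Amot exceeded Amotl1 in all libraries but Sav1-null replicate 4, by deposited value. This ratio was lower by 1.88 on the log2 scale in the Sav1-null group and that of Amot to Amotl2 by 0.78 (exact permutation p = 0.0286 and adjusted p = 0.0429 for both). For the ratio to Amotl2 the margin between the groups was thin, with 0.443 in Sav1-null replicate 1 and 0.447 in wild-type replicate 3. Its exact permutation p was 0.0571 without any single library other than wild-type replicate 3.

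**Figure D4:**
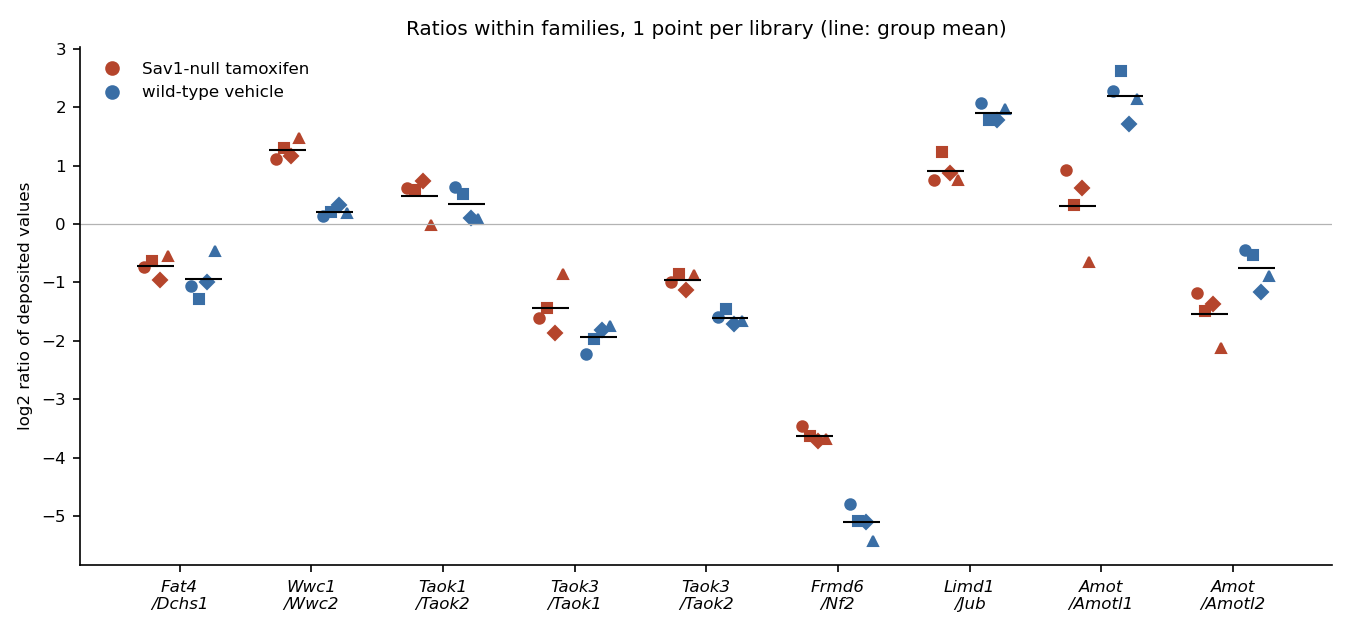
Log2 ratio of the deposited values of 2 genes within each library (y axis), for 9 ratios, in the Sav1-null tamoxifen and wild-type vehicle libraries, with a line at each group mean and circle, square, diamond and triangle for replicates 1 to 4. For 6 ratios the groups do not overlap: Wwc1 to Wwc2, Taok3 to Taok2 and Frmd6 to Nf2 are higher in the Sav1-null libraries, and Limd1 to Ajuba (Jub), Amot to Amotl1 and Amot to Amotl2 are lower. Of all tested genes taken singly, 65.2% do not overlap, and the share for ratios of other genes was not computed.

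The other genes of the pathway were taken from 8 lists, of which 83 of 90 genes were tested. Of the 83, 52 were higher and 7 lower, or 62.7% higher against 43.9% of all tested genes, with a median log2 fold change of 0.67. The count of lower calls was 18 after the median-of-ratios step (34.0% of all tested genes), 10 after quantile normalization (33.0%) and 1 with equal totals (14.2%). The count of higher calls was 45 after the median-of-ratios step (33.8% of all tested genes), 50 after quantile normalization (31.5%) and 68 with equal totals (63.4%). The list of LIM and angiomotin paralogs rose in 7 of 7 (median 1.13), as deposited and under all 3 other scalings, with Zyx, a focal adhesion LIM protein gene, at 2.18-fold (limma adjusted p = 7.29e-06).

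In the list of cadherin and planar polarity inputs 6 of 8 were higher and 1 lower (median 1.09). Fat1, the atypical cadherin related to Fat4, was at 3703 ± 418 in the Sav1-null group and 1019 ± 232 in the wild-type group (3.68-fold), and Celsr1, a planar polarity cadherin, rose 2.42-fold. Fat2 was the gene that fell, at 1.13 ± 1.27 in the Sav1-null group, near the worth of 1 read, and 34.3 ± 16.7 in the wild-type group. Among merlin, FERM and membrane scaffold inputs 10 of 12 were higher and 1 lower (median 1.02). Msn, which encodes moesin, rose 5.90-fold and the phosphatase gene Ptpn14 5.88-fold, while Rdx, which encodes radixin, was 1.37-fold lower as deposited, a call lost after quantile normalization (-0.16, limma adjusted p = 0.454) and with equal totals (-0.07, limma adjusted p = 0.688). The Rdx call was also lost without Sav1-null replicate 2 and without each wild-type library in turn (-0.48 to -0.42, limma adjusted p from 0.0584 to 0.0900).

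Of 14 apical and basolateral polarity genes 7 were higher and 0 lower (median 0.40), with Dlg1, which encodes a basolateral scaffold, at 1.61-fold and Prkci, which encodes an atypical protein kinase C, at 1.82-fold. In that list 4 of 14 were higher and 3 lower after median-of-ratios rescaling, where 33.8% of all tested genes were higher, and 11 were higher with equal totals, where 63.4% were. Of 11 MAP4K and MARK kinases 6 were higher and 2 lower (median 0.44), with Map4k4, a kinase that can phosphorylate LATS, at 2.68-fold and Mark1 at 7.98-fold, against falls of Map4k2 (1.47-fold) and Mark3 (1.31-fold) that were not called with equal totals. Of 17 STRIPAK and RASSF genes, which encode MST-binding proteins and a phosphatase complex that acts on MST, 8 were higher and 2 lower (median 0.19). Rassf6 rose 3.13-fold and Sike1 1.80-fold, whereas Rassf3 and Slmap were 1.45-fold and 1.33-fold lower, neither called with equal totals nor without wild-type replicates 2 and 3 (Rassf3 -0.51, limma adjusted p = 0.0565; Slmap -0.41, limma adjusted p = 0.0755).

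In the core kinase cassette 2 of 7 were higher and 1, Sav1, was lower (median 0.28). Mob1a, a co-activator of LATS, rose 1.53-fold and Stk4, which encodes MST1, 1.22-fold, the second not called after median-of-ratios rescaling (0.06, limma adjusted p = 0.458). The number higher was 5 without Sav1-null replicate 4, 5 with equal totals (63.4% of all tested genes) and 1 after median-of-ratios rescaling (33.8%). Among the YAP, TAZ, TEAD and VGLL factors 6 of 7 tested were higher and 0 lower (median 0.86), with Vgll4, a cofactor that competes with YAP for TEAD, at 3.63-fold and Tead2 at 7.97-fold. In that list the number higher was 5 after median-of-ratios rescaling and without the intensity trend, and 7 with equal totals. It was 7 without Sav1-null replicate 4 and 5 without any other single library. Genes given a fold in these 3 paragraphs had a limma adjusted p between 3.49e-07 and 0.0376.

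**Figure D5:**
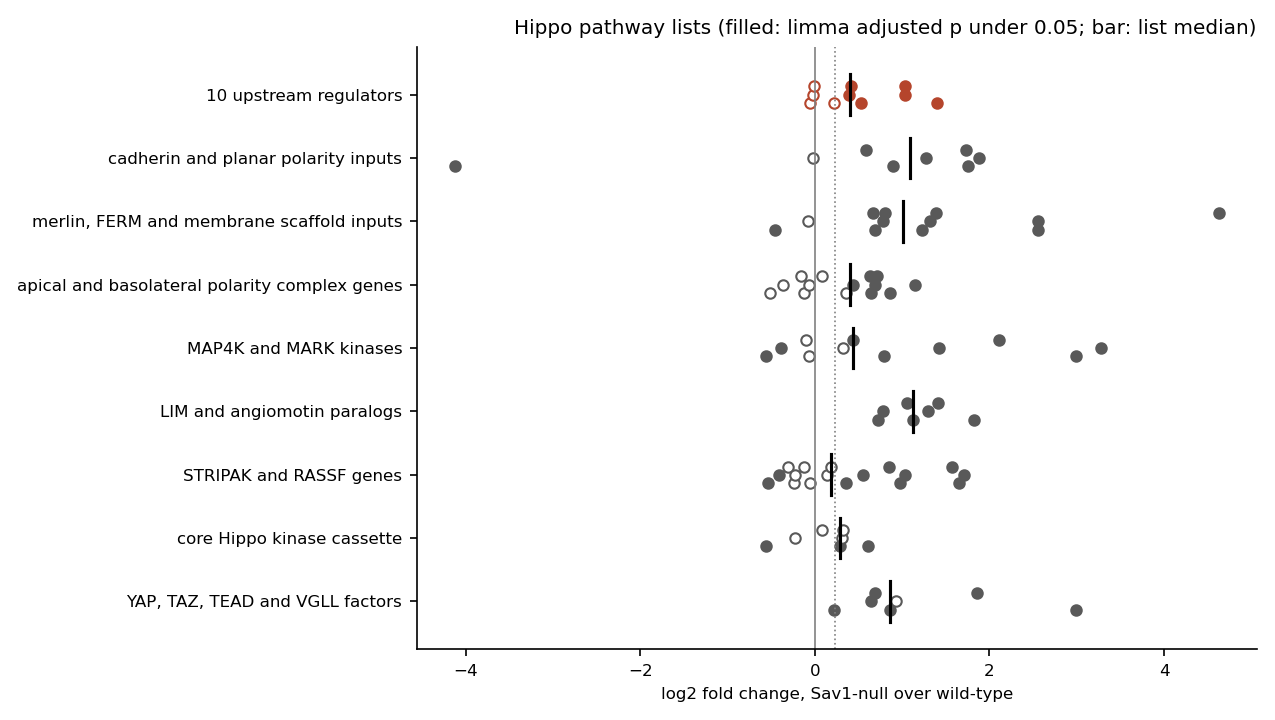
Log2 fold change, Sav1-null over wild-type (x axis), of each tested gene of the 10 upstream regulators (top row) and of 8 other pathway lists; filled points have a limma adjusted p under 0.05, bars are list medians, and the dotted line is the median of all tested genes, 0.23. The 10 regulators reach from -0.05 to 1.40 with a median of 0.40, below the medians of the cadherin, merlin and LIM lists (1.09, 1.02 and 1.13).

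Likeness between genes was measured as the Euclidean distance of their log2 values over the 8 libraries, each gene set to a mean of 0, as a description. The nearest pathway gene was Zyx for both Wwc1 (distance 0.298) and Taok3 (0.285), Tjp1 for Frmd6 (0.418), Mob1a for Taok1 (0.255), Strn4 for Taok2 (0.199) and Stk4 for Limd1 (0.237). Nf2 was nearest to Wwc2 (0.175), Mob1b to Amot (0.438), Amot to Dchs1 (0.578) and Wwtr1 to Fat4 (0.653). Among all tested genes, Wwc1 was nearest to Myo1c, Hivep1 and Pou3f3 (0.145 to 0.216) and Taok3 to Dennd4b, Mfsd6 and Acsl5 (0.140 to 0.177).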

How the data were processed

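The authors deposited 1 normalized expression value per gene and library, a signal and not a count. Libraries were made with a stranded mRNA kit, per the labels' protocols. Per the submitters' processing notes, RSEM, SAMtools and Picard 1.64 were used with build mm9; no source used here names the aligner, the annotation or whether strand was used. Upper-quartile scaling and the value of 1 read were read from the values: 92.7% to 93.3% of values below 400 lay within 0.02 read of a whole multiple, too few for a count model. RSEM splits reads shared by paralogs by estimate, and values of genes with an overlapping antisense gene are uncertain.

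The test took genes averaging 10 or more across the libraries (13677 of 21705). Log2(value + 1), which understates changes of low genes, was compared with limma 3.58.1 in R 4.3.3 (intensity trend, Benjamini-Hochberg over all tested genes, threshold 0.05). On simulated data it recovered 62.0% of log2 changes of 1 and 90.0% of those of 2. Far fewer genes changed in the simulation than were called here. Folds are antilogs of these log2 fold changes. Single genes and the 9 ratios had a two-sided exact permutation test over 70 assignments. Lengths came from GENCODE M21. Depth limits precision for counting error only.

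Members, lists, ratios and tests were chosen with earlier results of these data known. Genes named were the 10 members, their paralogs in the ratios, Sav1, the 2 called genes per pathway list and direction with the smallest p, and the nearest profiles; Nf2, Xist, Ddx3y, Havcr1, Pdgfra, Cldn22 and Abhd15 are given as checks, Havcr1 and Pdgfra having been picked after their values were seen. Alternatives were pseudocounts of 0.5 and 10, no filter, a mean of at least 100, 3 scalings, no intensity trend, a replicate block and leaving out libraries.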

Additional observations from a re-analysis of the deposited data

How the results depend on the processing

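The 6 higher calls (Frmd6, Wwc1, Taok3, Taok1, Limd1 and Taok2) held with both other pseudocounts, both other filters, no intensity trend and each library left out (6 members called higher and 0 lower in each). The background stayed high too. Of all tested genes 6002 were higher as deposited, 5997 and 6015 with pseudocounts of 0.5 and 10, and 5972 without the intensity trend. The number was 6700 without the filter, 4394 with a mean of at least 100 and 5471 to 6296 with 1 library left out. Of the 9 ratios, 6 or 7 did not overlap with the other pseudocounts or 1 library left out, and 6 after quantile normalization, an alternative chosen for them after seeing the data. The share for ratios of other genes was not computed. With median-of-ratios rescaling 4 members were higher (33.8% of all tested genes were) and 1, Wwc2, lower (-0.25). With quantile normalization 7 were higher (31.5% of all tested genes), Wwc2 among them (0.19), and 2 lower (33.0%), Fat4 (-0.87) and Dchs1 (-0.98). With equal totals 7 were higher (63.4% of all tested genes, near the members' share), Wwc2 among them (0.36), and 0 lower. Of all tested genes 3452 were called lower as deposited and 1946 with equal totals. Of the other pathway genes 7 were lower as deposited, 18 with median-of-ratios rescaling, 1 with equal totals and 4 without wild-type replicates 2 and 3, an alternative chosen after seeing the data. The cause of these shifts was not tested. A mean of at least 100 left out Fat4 and Dchs1, whose 21 to 81 reads per library limit their precision.

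Whether replicate numbers pair the libraries was not tested and stays unsettled. Same-numbered libraries correlated in their deviations at 0.14, 0.08, -0.17 and 0.14, and not every library correlated best with its own number. With the replicate block 6 members were higher and 0 lower, and 9318 of all genes were called against 9454. For the ratios, pairing by number with an exact sign-flip test cannot go below p = 0.125, the p of all 6 ratios that did not overlap.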
